A study of Mus musculus with 14 samples.

Results

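The genes described here are 10 interferon-induced GTPases of the mouse, 6 guanylate-binding proteins (Gbp2, Gbp3, Gbp4, Gbp5, Gbp6, and Gbp7) and 4 immunity-related GTPases (Irgm1, Irgm2, Igtp, and Iigp1), out of 53801 genes with values in bulk RNA-seq of CT26 tumors. They were chosen by family and by name, with earlier results of these data known, and all 10 passed the filter on low counts. CT26 cells derive from a chemically induced colon carcinoma in the Balb/c strain, and those used here carried ClonTracer DNA barcodes. Female Balb/c mice of 6 to 8 weeks received 250000 barcoded cells at each flank site, and from day 7 they were given 5 intraperitoneal doses of 200 µg antibody at intervals of 3 days, with harvest 3 days after the last dose. The 14 tumors came from 11 mice and fell into 5 tumors of 4 mice given control IgG (clone 2A3), 5 tumors of 4 mice given anti-PD1 and classed as responders, and 4 tumors of 3 mice given anti-PD1 and classed as non-responders. The study assigned the response class by tumor size at the end of treatment, compared with control IgG tumors, so the classes were not assigned at random. A tumor is named here by its mouse and flank, and 14L with 14R, 30L with 30R, and 33L with 33R came from the same mouse.

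Guanylate-binding proteins (GBPs) are large GTPases of the dynamin superfamily that assemble on the vacuoles and surfaces of intracellular pathogens after interferon treatment. Immunity-related GTPases (IRGs) act beside them, and fall into effectors such as Iigp1, which load onto pathogen vacuoles, and regulatory members, Irgm1, Irgm2, and Igtp, which hold effectors inactive on the cell's own membranes. Interferon-gamma, made mainly by T cells and NK cells, acts through its receptor and the kinases JAK1 and JAK2 on gamma-activated sites (GAS), and through IRF1 on interferon-stimulated response elements (ISRE), while type I interferons act on the ISRE through a complex that holds STAT2 and IRF9. In tumors the same genes serve as a readout of interferon signaling in tumor cells and infiltrating cells.

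The members lie in a few clusters of the mm10 genome. Gbp5 (chr3:142493978-142522344), Gbp7 (chr3:142530342-142550149), Gbp3 (chr3:142560026-142573209), and Gbp2 (chr3:142620602-142638008) follow each other on the plus strand of chromosome 3. Gbp4 (chr5:105115767-105139586) and Gbp6 (chr5:105270702-105293698) are on the minus strand of chromosome 5. Irgm1 (chr11:48861968-48871683, minus strand), Igtp (chr11:58199556-58207591), and Irgm2 (chr11:58199618-58222782) are on chromosome 11, and Iigp1 (chr18:60376027-60392634) is on chromosome 18, the last 3 on the plus strand. The annotated spans of Igtp and Irgm2 overlap on the same strand.

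Promoter sequences are shown because these genes moved together across tumors (below), and the GAS and ISRE are the sites through which interferons are known to act on them. RefSeq promoters of GRCm38.p6 were searched for 7 of the 10 members. Those of Gbp4, Gbp6, and Iigp1 were not searched, so the counts below do not cover them. The 250 bases before each start were searched for the ISRE core GAAANNGAAA, which reads TTTCNNTTTC on the other strand, and for the GAS core TTCNNNGAA, which is the same on both strands. All 7 genes held at least 1 ISRE core, which was in 2.98% of 32851 promoters searched in the same way, and Gbp5, Gbp7, Igtp, and Irgm2 also held a GAS core, which was in 7.02%. Both cores together were in 0.332% of all promoters. A match is a description of these letters, not of a bound site, and Gbp3 has another RefSeq start without a match. In the sequences below, read 5′ to 3′ along the gene, capitals mark the ISRE and GAS cores.

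Gbp2, chr3:142620589-142620628, plus strand, 1 ISRE core: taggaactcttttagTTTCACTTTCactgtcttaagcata

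Gbp3, chr3:142559984-142560029, plus strand, 2 overlapping ISRE cores: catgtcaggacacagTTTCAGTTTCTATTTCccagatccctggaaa

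Gbp5, chr3:142496754-142496793, plus strand, 1 ISRE core: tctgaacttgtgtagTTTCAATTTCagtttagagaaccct

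Gbp5, chr3:142496867-142496905, plus strand, 1 GAS core: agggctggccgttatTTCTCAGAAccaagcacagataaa

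Gbp7, chr3:142530215-142530307, plus strand, 2 GAS cores and 1 ISRE core: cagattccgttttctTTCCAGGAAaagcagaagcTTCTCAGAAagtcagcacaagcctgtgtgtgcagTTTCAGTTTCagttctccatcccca

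Irgm1, chr11:48871430-48871455, minus strand, 2 overlapping ISRE cores: ttcaaGAAATAGAAACCGAAActgat

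Igtp, chr11:58199496-58199546, plus strand, 1 GAS and 1 ISRE core: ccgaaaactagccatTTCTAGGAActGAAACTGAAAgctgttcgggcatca

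Irgm2, chr11:58214887-58214937, plus strand, 1 GAS and 1 ISRE core: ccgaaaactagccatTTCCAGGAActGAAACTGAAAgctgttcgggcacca

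Gbp5 held another GAS core farther upstream, 245 to 237 bases before its start. The windows of Igtp and Irgm2 were the same at 49 of 51 positions, and in both the GAS core stands 2 bases before the ISRE core. The Gbp5 and Irgm2 starts used here lie within the annotated spans of these genes in mm10, and the Irgm1 window and 27 of the 40 bases of the Gbp2 window lie in exons of the GENCODE annotation.

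Totals of the expected counts, the estimated fragments per gene, were between 33237744 and 48481461 per tumor, and counts of the members were between 335 and 30799, so counting error was small beside the spread between tumors. Every pair of tumors within a group differed by more than counting noise, so all were kept as separate samples. Non-responder 33R stood apart from the other non-responders, with a chi-square per gene of 135 to 196 against them, whereas all other pairs within a group were between 21.2 and 90.2. For Gbp6, Irgm2, and Igtp the estimates were not whole in 14 of 14 tumors, in 10 for Gbp4, and in 8 for Gbp7, so that fragments were divided between genes and the split between them is uncertain. The tumors held little of some markers of colon epithelium: Cdx1 was at 0 in all 14 tumors, Vil1 was at most 0.18 TPM (RSEM's length-scaled transcript abundance), and Cdx2 at most 0.41 TPM, while Krt20 was between 107.3 and 340.1 TPM. Marker levels of skin epidermis (5.16 to 734.3 summed TPM) and skeletal muscle (22.02 to 1076 summed TPM) varied widely in every group.

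All 10 genes had higher levels in responders than in non-responders, by 2.06-fold (Irgm1) to 2.87-fold (Gbp5), and no responder overlapped a non-responder for any of them. All 10 were also higher in responders than in control IgG tumors, by 1.88-fold (Irgm1) to 2.66-fold (Gbp4), but here the groups overlapped for all but Gbp2. None differed between non-responders and control IgG tumors beyond the test's threshold. The test was edgeR's quasi-likelihood test on the expected counts of all 14 tumors, with p-values adjusted over all genes tested (Benjamini-Hochberg) and a threshold of 0.05. Summed over the 10 genes, the level was 605 to 1621 TPM in responders (median 1049), 270 to 401 TPM in non-responders (median 382), and 229 to 626 TPM in control IgG tumors (median 421).

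**Figure D1:**
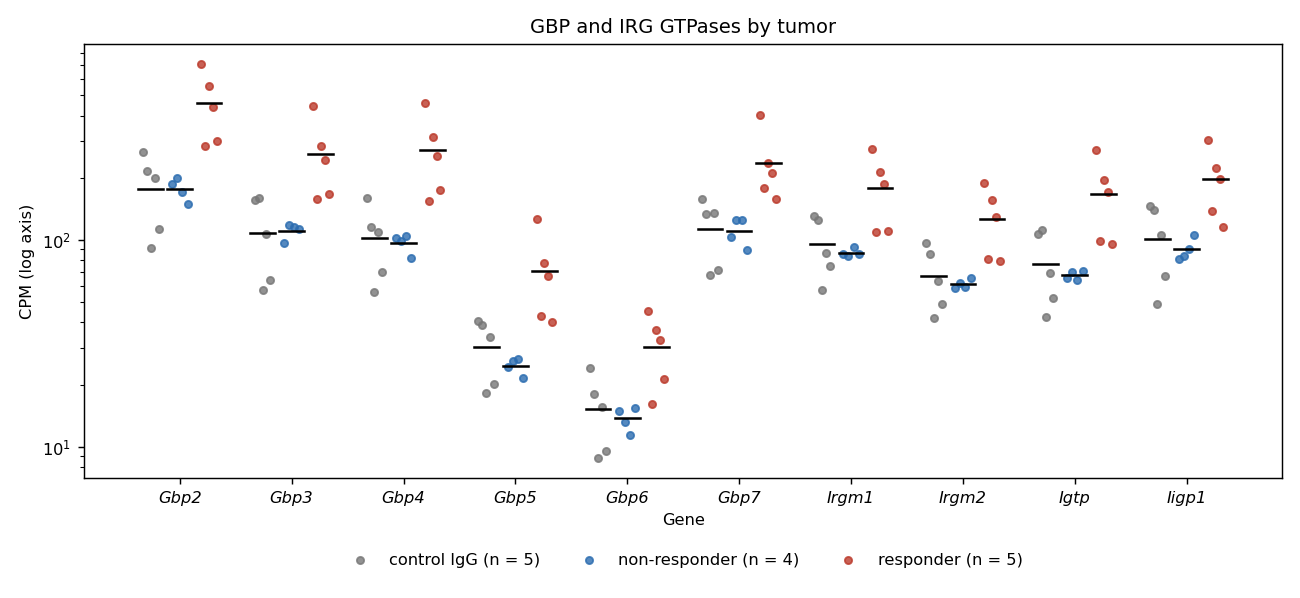
Level of each of the 10 genes in each tumor, in CPM (counts scaled to a common library size) on a log axis, with points for tumors and black bars for the group mean. For every gene the 5 responders lie above the 4 non-responders, while the highest control IgG tumors reach the lowest responders for all genes but Gbp2.

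The GBPs of the chromosome 3 cluster include the most abundant member. Gbp2, which coats the vacuoles of parasites such as Toxoplasma, was at 712, 286, 555, 439, and 301 CPM in responders 24L, 26R, 30L, 30R, and 35L. In non-responders 29L, 32R, 33L, and 33R it was at 187, 200, 171, and 149 CPM, and in control IgG tumors 14L, 14R, 16R, 17R, and 20R at 265, 215, 91.9, 199, and 114 CPM. Every responder was thus above every other tumor, by a narrow margin over 14L. The log2 fold change against non-responders was 1.37 ± 0.32 (SE; adjusted p = 0.0190), and against control IgG it was 1.38 ± 0.30 (SE; adjusted p = 0.00813).

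Gbp5, known to promote assembly of the NLRP3 inflammasome, had the largest fold change of the members between responders and non-responders. It was at 126, 42.9, 77.3, 66.6, and 40.0 CPM in responders 24L, 26R, 30L, 30R, and 35L, and at 24.4, 25.9, 26.5, and 21.6 CPM in non-responders 29L, 32R, 33L, and 33R. Control IgG tumors 14L, 14R, 16R, 17R, and 20R held 40.8, 38.9, 18.1, 33.8, and 20.0 CPM. Responders 26R and 35L were therefore close to control IgG tumors 14L and 14R, but above all non-responders. The log2 fold change was 1.52 ± 0.33 (SE; adjusted p = 0.0148) against non-responders and 1.22 ± 0.30 (SE; adjusted p = 0.0163) against control IgG.

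Gbp3 was between 157 and 446 CPM in responders (median 243), between 97.1 and 118 CPM in non-responders (median 114), and between 57.0 and 160.0 CPM in control IgG tumors (median 106). Gbp7 was between 158 and 403 CPM in responders (median 211), 89.3 and 126 CPM in non-responders (median 114), and 67.5 and 159 CPM in control IgG tumors (median 134). Both thus had their lowest responder just under the highest control IgG tumor. Their log2 fold changes against non-responders were 1.23 ± 0.34 for Gbp3 (SE; adjusted p = 0.0375) and 1.10 ± 0.30 for Gbp7 (SE; adjusted p = 0.0332).

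The GBPs of chromosome 5 differed in abundance but not in direction. Gbp4 was at 458, 155, 314, 256, and 174 CPM in responders 24L, 26R, 30L, 30R, and 35L, and at 103, 99.2, 104, and 81.5 CPM in non-responders 29L, 32R, 33L, and 33R. In control IgG tumors 14L, 14R, 16R, 17R, and 20R it was at 160, 116, 55.8, 110, and 70.3 CPM. Only 14L among the control IgG tumors reached the responders' range. The log2 fold change was 1.49 ± 0.33 (SE; adjusted p = 0.0166) against non-responders and 1.41 ± 0.30 (SE; adjusted p = 0.00828) against control IgG, the largest of the 10 in the latter comparison. Gbp6, the least abundant member, ran from 16.1 to 45.3 CPM in responders, from 11.4 to 15.5 CPM in non-responders, and from 8.80 to 24.1 CPM in control IgG tumors. Its lowest responder, 26R, was just above its highest non-responder, 33R, and the log2 fold change was 1.15 ± 0.32 (SE; adjusted p = 0.0370).

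Of the regulatory IRGs, Igtp (also called Irgm3) had the largest difference. It was at 273, 99.1, 196, 170, and 95.2 CPM in responders 24L, 26R, 30L, 30R, and 35L, and at 65.6, 70.1, 64.3, and 70.6 CPM in non-responders 29L, 32R, 33L, and 33R. Control IgG tumors 14L, 14R, 16R, 17R, and 20R held 108, 112, 42.3, 69.4, and 52.6 CPM. Both tumors of control mouse 14 were thus above responders 26R and 35L. The log2 fold change was 1.30 ± 0.33 (SE; adjusted p = 0.0265) against non-responders and 1.12 ± 0.30 (SE; adjusted p = 0.0264) against control IgG.

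Irgm1, which is needed for resistance of macrophages to mycobacteria, had the smallest fold change in both comparisons. It was at 276, 109, 213, 187, and 111 CPM in responders 24L, 26R, 30L, 30R, and 35L, and at 85.3, 84.0, 92.7, and 85.7 CPM in non-responders 29L, 32R, 33L, and 33R. In control IgG tumors 14L, 14R, 16R, 17R, and 20R it was at 131, 125, 57.6, 86.9, and 75.3 CPM. The non-responders were almost level, whereas the control IgG tumors lay on both sides of them. The log2 fold change was 1.04 ± 0.28 (SE; adjusted p = 0.0342) against non-responders and 0.91 ± 0.26 (SE; adjusted p = 0.0334) against control IgG. Irgm2 ran from 78.9 to 188 CPM in responders, from 58.4 to 65.3 CPM in non-responders, and from 41.8 to 96.4 CPM in control IgG tumors, with a log2 fold change of 1.05 ± 0.28 (SE; adjusted p = 0.0316) against non-responders.

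Iigp1 (Irga6) was the only effector IRG among the members. It was at 306, 138, 224, 197, and 116 CPM in responders 24L, 26R, 30L, 30R, and 35L, and at 80.5, 83.8, 90.9, and 106 CPM in non-responders 29L, 32R, 33L, and 33R. Control IgG tumors 14L, 14R, 16R, 17R, and 20R held 146, 140, 49.2, 106, and 66.6 CPM. Of the 10 genes it came closest to the threshold in both comparisons, with a log2 fold change of 1.12 ± 0.32 (SE; adjusted p = 0.0412) against non-responders and 0.95 ± 0.30 (SE; adjusted p = 0.0484) against control IgG.

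Across all 16287 genes tested, 5.08% were called higher in responders than in non-responders, and 6.8% were higher without overlap between the groups, against 10 of 10 members by either measure. The median log2 fold change was 1.19 over the members and 0.01 over all genes, with 1.30 over the 6 GBPs and 1.08 over the 4 IRGs. In the comparison of responders with control IgG, 7.88% of all genes were called higher and 8.34% were higher without overlap, against 10 and 1 of the members, and the members' median log2 fold change was 1.09 (GBPs 1.24, IRGs 0.93) against -0.01 over all genes. Both comparisons use the same responder tumors and are not independent.

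**Figure D2:**
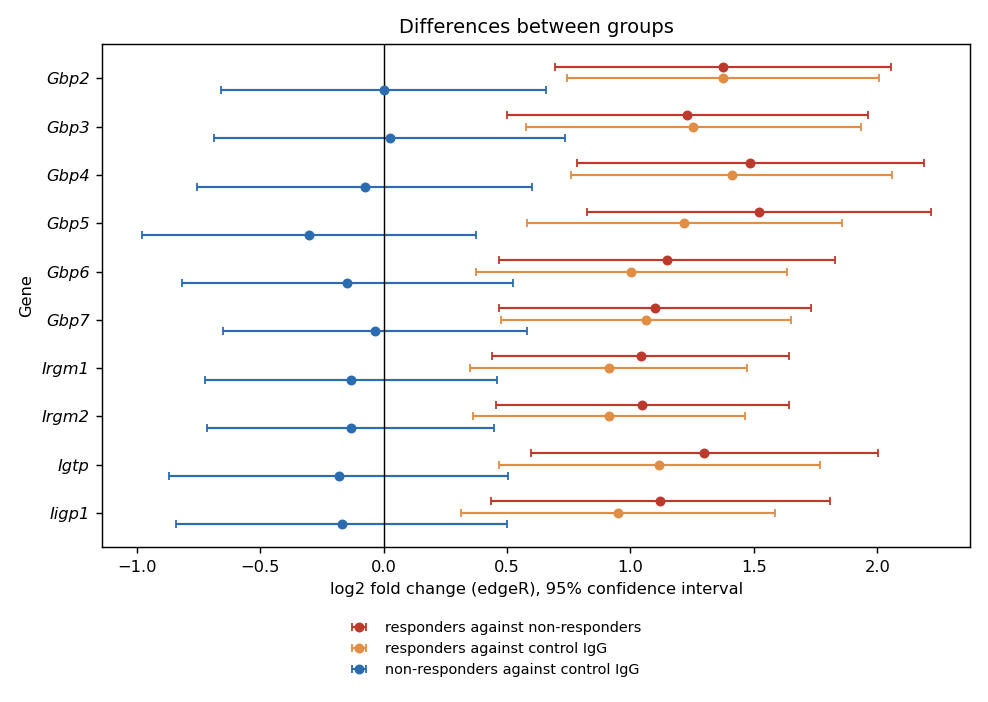
Fitted log2 fold change of each gene in the 3 comparisons, with 95% confidence intervals as bars. All intervals against non-responders and against control IgG lie above 0 for responders, and all intervals of non-responders against control IgG include 0.

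These calls lay close to the threshold, and several rested on single tumors. Against non-responders, 10 of 10 members stayed under an adjusted p of 0.05 without 26R or 35L, but 6 did without 33L, 5 without 29L, 4 without 30L, 3 without 30R or 32R, and 2 without 24L or 33R. Gbp4 and Gbp5 passed in all 9 of these fits, Gbp2 in 7, and Igtp in 5, and the other members in 2 or 3. With the tumors of a mouse summed into 1 library, 3 members passed, Gbp2, Gbp4, and Gbp5 (adjusted p from 0.0324 for the lowest to 0.0686 for the highest of the 10). The fold changes moved less than the calls: over these fits the members' median log2 fold change was between 0.95 (without 24L) and 1.34 (without 26R).

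Against control IgG, 10 members passed without 14L, 14R, 26R, or 35L, 5 without 16R, 17R, 30L, or 30R, and 3 without 20R or 24L. Gbp2, Gbp4, and Gbp5 passed in all 10 fits, and Gbp3 and Gbp7 in 8, while Gbp6 and the 4 IRGs passed in 4. All 10 members passed with 1 library per mouse.

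**Figure D3:**
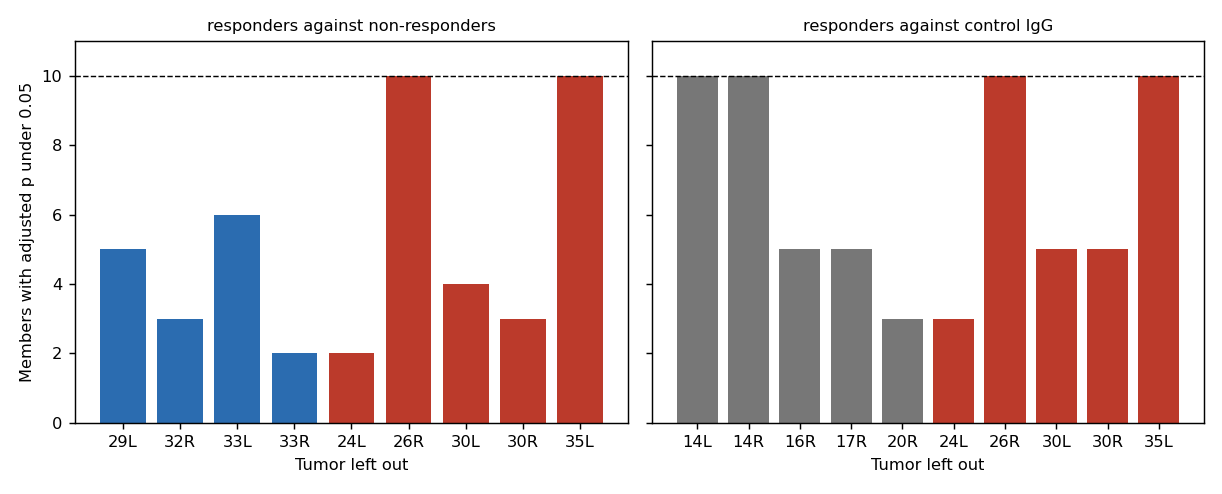
Number of the 10 genes with an adjusted p under 0.05 when the tumor on the x axis is left out, with bars colored by the group of that tumor (gray, control IgG; blue, non-responder; red, responder) and a dashed line at the 10 called with all tumors. Leaving out 26R or 35L kept all 10 in both comparisons, and leaving out 24L left 2 against non-responders and 3 against control IgG.

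None of the 10 genes was called between non-responders and control IgG tumors by edgeR's quasi-likelihood test (adjusted p from 0.931 to 0.999), in a comparison where 0% of all genes were called and 4.65% (758 genes) had an unadjusted p under 0.05, none of them a member. DESeq2 called 16 genes there and no member. Log2 fold changes ran from -0.30 for Gbp5 to 0.03 for Gbp3, with 95% confidence intervals from -0.98 to 0.37 and from -0.68 to 0.74. The highest upper bound of the 10 intervals, 0.74 for Gbp3, was below the smallest fold change of responders against control IgG, 0.91 for Irgm1. That fold change had its own interval of 0.35 to 1.47, which reaches below 0.74, and both comparisons share the control IgG tumors. The test does not show that non-responders and control IgG tumors were alike.

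The 10 genes ordered the tumors almost alike. Responder 24L was the highest of the 14 tumors for all 10 genes, 30L was next and 30R after it, and control IgG tumor 16R was the lowest for all 10 with 20R just above it. Between these ends, responders 26R and 35L held places 4 to 7, among control IgG tumors 14L (4 to 7) and 14R (4 to 8), and the 4 non-responders held places 8 to 12. The highest tumor exceeded the lowest by 4.51-fold for Irgm2 to 8.22-fold for Gbp4.

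Spread within a group differed in size between groups. The mean log2 CPM of the 10 genes had an SD of 0.59 among the 5 responders and also among the 5 control IgG tumors, against 0.039 among the 4 non-responders, whose means were between 6.06 and 6.14. Taken apart, the SD among non-responders was 0.091 for the GBPs and 0.070 for the IRGs. Tumor 33R was the lowest non-responder by the GBP mean (5.88) and the highest by the IRG mean (6.33). The highest responder exceeded the lowest by 2.39-fold (Irgm2) to 3.15-fold (Gbp5), and the highest control IgG tumor the lowest by 2.25-fold (Gbp5) to 2.96-fold (Iigp1), whereas the non-responders spanned 1.10-fold (Igtp) to 1.41-fold (Gbp7). These spreads were not tested against each other. On the summed TPM scale non-responder 33R, at 270, was below the other non-responders (379 to 401).

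**Figure D4:**
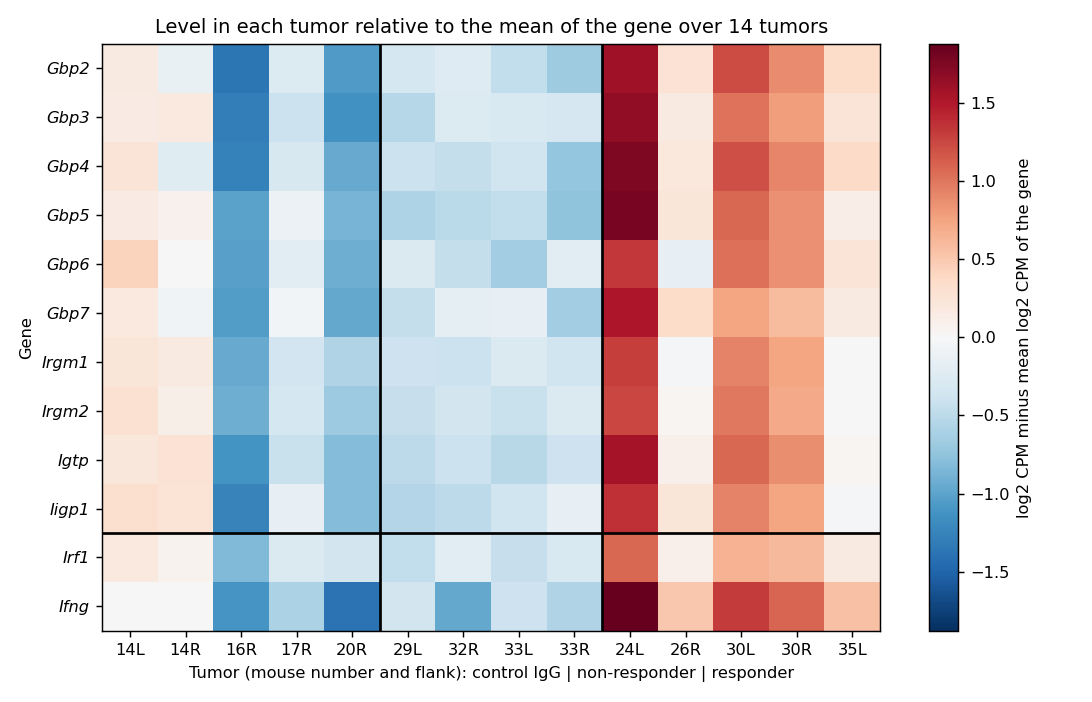
Log2 CPM of the 10 genes, and below the line of Irf1 and Ifng, in each tumor, minus the mean of the gene over the 14 tumors, with vertical lines between the groups. Columns 24L, 30L, and 30R are high and 16R and 20R low for all 10 genes, and the 4 non-responder columns are below the mean for all 10.

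Over the 14 tumors, Pearson's r between log2 CPM of 2 members was between 0.91 and 0.996 in the 45 pairs (median 0.97), and after removal of group means it was between 0.82 and 0.99 (median 0.94). Points share the library and its total, and some share the mouse. The genes outside the list most like the members' mean z-score by Pearson's r over 14 tumors included other GBPs and IRGs. These were Gbp10 (0.99), Gm4951 (0.99), Gbp2b (0.99), and Tgtp1 (0.98), and Gm43302 and Gm12185 were also among the most alike. The annotated span of Gm43302 overlaps those of Gbp6 and Gbp10, and that of Gm12185 overlaps Tgtp1. Estimates of Gbp10 and Tgtp1 were not whole in 14 of 14 tumors, so their likeness may in part reflect divided fragments, which was not tested. Batf2, Trim12c, and Hk3 each had r of 0.99. In all, 216 of 16277 other genes had r above 0.9.

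The 2 flanks of a mouse were compared in the 3 mice with both tumors. In responder mouse 30 all 10 genes were higher in the left tumor, by a median log2 difference of 0.21, in control mouse 14 it was 8 of 10 with a median of 0.12, and in non-responder mouse 33 it was 6 of 10 with a median of 0.07. In mouse 33 the genes went both ways, from -0.44 for Gbp6 to 0.49 for Gbp7, and the 10 genes summed to 401 TPM in 33L and 270 TPM in 33R. Their mean log2 CPM was closer, at 6.11 in 33L and 6.06 in 33R. In mouse 30 the sums were 1132 and 1049 TPM, whereas responders 24L and 26R of different mice were at 1621 and 605 TPM.

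Per length, Gbp2 was the highest and Gbp6 the lowest member in every group. Mean TPM in responders was 260 ± 104 for Gbp2, 142 ± 63.8 for Gbp3, 123 ± 55.9 for Igtp, 120 ± 49.4 for Irgm1, 95.3 ± 44.1 for Gbp4, 93.5 ± 37.1 for Iigp1, 74.5 ± 27.2 for Gbp7, 50.2 ± 19.4 for Irgm2, 33.5 ± 16.1 for Gbp5, and 13.6 ± 5.54 for Gbp6 (SD, n = 5). Neighbors in that order overlapped in range in all responders and control IgG tumors, though Gbp2 was above the next gene in each of the 5 responders. In non-responders Gbp2 was at 85.0 ± 18.9 TPM and Gbp6 at 5.10 ± 0.81 TPM (SD, n = 4), and only Irgm2 with Gbp5 and Gbp5 with Gbp6 were neighbors with ranges apart. In control IgG tumors Gbp2 was at 91.4 ± 39.8 TPM and Gbp6 at 6.35 ± 2.77 TPM (SD, n = 5).

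Other GBP and IRG genes followed the members. Of 17 listed, 15 were tested, and 9 were higher in responders than in non-responders and none lower, with a median log2 fold change of 0.96 over the 15. Gbp10 rose by 1.91 ± 0.45 (SE; adjusted p = 0.0204) on the log2 scale, Gbp2b, the neighbor of Gbp2, by 1.42 ± 0.35 (SE; adjusted p = 0.0250), and Gm12250, an IRG gene, by 1.44 ± 0.34 (SE; adjusted p = 0.0226). Gbp10, Tgtp1, and Tgtp2 had fragments divided between genes in 14 of 14 tumors. The effectors Tgtp1 and Tgtp2 had log2 fold changes of 1.31 (adjusted p = 0.0475) and 1.09 (adjusted p = 0.0515), and Ifi47 0.76 (adjusted p = 0.0872). Irgq, a divergent IRG, had 0.39 (adjusted p = 0.170) and overlapped between the groups. Against control IgG 11 of the 15 were higher and none lower.

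Among 12 genes of interferon-gamma signaling, 5 were higher in responders than in non-responders and none lower. The ligand Ifng was counted 114, 34, 67, 76, and 47 times in responders 24L, 26R, 30L, 30R, and 35L, 21, 14, 18, and 14 times in non-responders 29L, 32R, 33L, and 33R, and 10 to 32 times in control IgG tumors. No responder overlapped another tumor in Ifng CPM, and the log2 fold change was 1.81 ± 0.38 (SE; adjusted p = 0.0139) against non-responders and 1.77 ± 0.35 (SE; adjusted p = 0.00515) against control IgG. The receptor subunit Ifngr1 rose by 0.33 on the log2 scale (adjusted p = 0.0101), whereas Ifngr2 stood at -0.05 (adjusted p = 0.846). The kinase Jak1 rose by 0.38 (adjusted p = 0.0357), and Irf1, a transcription factor induced by interferon-gamma, by 0.91 (adjusted p = 0.0190). The feedback inhibitors Socs1 (0.47, adjusted p = 0.213) and Socs3 (0.14, adjusted p = 0.368) and the phosphatase Ptpn2 (-0.21, adjusted p = 0.120) did not pass. Against control IgG 4 of the 12 were higher and Ptpn2 was lower, with a log2 fold change of -0.28 (adjusted p = 0.0341).

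Of 10 other genes known as interferon-gamma targets, 7 were higher in responders than in non-responders. The largest changes were those of Ido1, a tryptophan-degrading enzyme (2.38 ± 0.40, SE; adjusted p = 0.00679), Ciita, the master regulator of MHC class II (2.16 ± 0.41, SE; adjusted p = 0.0102), and Cxcl9, a T cell chemokine (1.38 ± 0.30, SE; adjusted p = 0.0150). Cd274, which encodes PD-L1, rose by 0.87 (adjusted p = 0.0354) on the same log2 scale. The immunoproteasome gene Psmb8 was at 0.32 (adjusted p = 0.283) and had the smallest fold change of the list. Among 12 type I interferon targets, 1 was higher, Stat2 (0.95, adjusted p = 0.0251). The others did not pass, from Usp18 (0.05, adjusted p = 0.952) and Isg15 (0.15, adjusted p = 0.824) to Oasl2 (0.84, adjusted p = 0.123). An unadjusted p under 0.05 was found for 5 of the 12 type I targets and 8 of the 10 interferon-gamma targets. The median log2 fold change was 0.97 over the interferon-gamma targets and 0.48 over the type I targets, and the lists were not tested against each other. Against control IgG 8 of the 10 and 2 of the 12 were higher, the latter Stat2 and Oas2. The medians there lay closer together, at 0.70 over the interferon-gamma targets and 0.58 over the type I targets.

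T cell markers moved with the members. All 8 were without overlap between responders and non-responders, 7 of 8 passed the test, and Cd3d did not (0.83, adjusted p = 0.0724). Their summed level was 49.5 to 100 TPM in responders, 25.2 to 33.0 TPM in non-responders, and 23.9 to 47.9 TPM in control IgG tumors, with none of the 8 at 0. NK cell markers summed to 28.5 to 47.4, 15.6 to 18.6, and 11.9 to 20.3 TPM in the same groups, with 1 of 4 tested higher than in non-responders (Klrk1), and Klra4 and Klra8 at 0 in all tumors. Macrophage markers summed to 458 to 600, 246 to 416, and 371 to 421 TPM, and 1 of 7 passed, Adgre1 (0.51, adjusted p = 0.0132). Endothelial markers summed to 84.8 to 112, 43.8 to 81.4, and 48.4 to 76.5 TPM, and none of 6 passed against non-responders. In CPM, 1 of 7 macrophage and 0 of 6 endothelial genes were above non-responders without overlap, beside 6.8% of all genes. The TPM scale itself put responders higher, with the median of all genes at 0.17 on log2(TPM + 1) against non-responders. Tumor 33R held the lowest non-responder sum of T cell, macrophage, and endothelial markers. Fibroblast (781 to 1367, 523 to 1182, and 664 to 961 TPM) and neutrophil markers (33.7 to 133, 77.9 to 198, and 73.9 to 269 TPM) overlapped between groups. B cell markers summed to 3.19 to 5.67, 2.25 to 3.86, and 2.06 to 2.86 TPM. In responders 1 gene of each of the last 3 lists was higher than in non-responders, Col1a2 among 6 fibroblast genes, Csf3r among 5 neutrophil genes, and Pax5 among 4 B cell genes tested. The median log2 fold change of the neutrophil genes was -0.64. S100a8 (-0.83), S100a9 (-0.67), and Retnlg (-0.64) pointed lower, Cxcr2 was at 0.08, and none of these passed. Among the fibroblast genes the median was 0.28, and Dcn was at -0.58 (adjusted p = 0.0613). Ly6g was at 0 in some tumors of every group, whereas Ms4a1 reached 0 only among control IgG tumors. Against control IgG, 8 of 8 T cell, 4 of 4 NK cell, 1 of 7 macrophage, 1 of 6 endothelial, and 2 of 4 B cell genes tested were higher. In that comparison 2 of 6 fibroblast and 1 of 5 neutrophil genes were also higher, and 1 fibroblast gene was lower. Bulk RNA cannot tell fewer cells of a type from less RNA per cell, and the part of these cells in the members' levels was not tested.

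The members did not track T cell markers in every tumor. Responders 30L and 35L had near-equal T cell sums (65.3 and 64.8 TPM), but 1132 and 619 TPM over the 10 members, and 35L was close to responder 26R (605 TPM) and to control IgG tumor 14L (626 TPM), whose T cell sums were 49.5 and 47.9 TPM. Type I target sums overlapped between groups, at 624 to 1413 TPM in responders, 392 to 703 TPM in non-responders, and 356 to 838 TPM in control IgG tumors. Tumor 33R was the highest non-responder by that sum and the lowest by the members' summed TPM. By the members' mean log2 CPM, however, 33R (6.06) was almost level with 29L (6.07), and by the IRG mean (6.33) it was the highest non-responder.

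**Figure D5:**
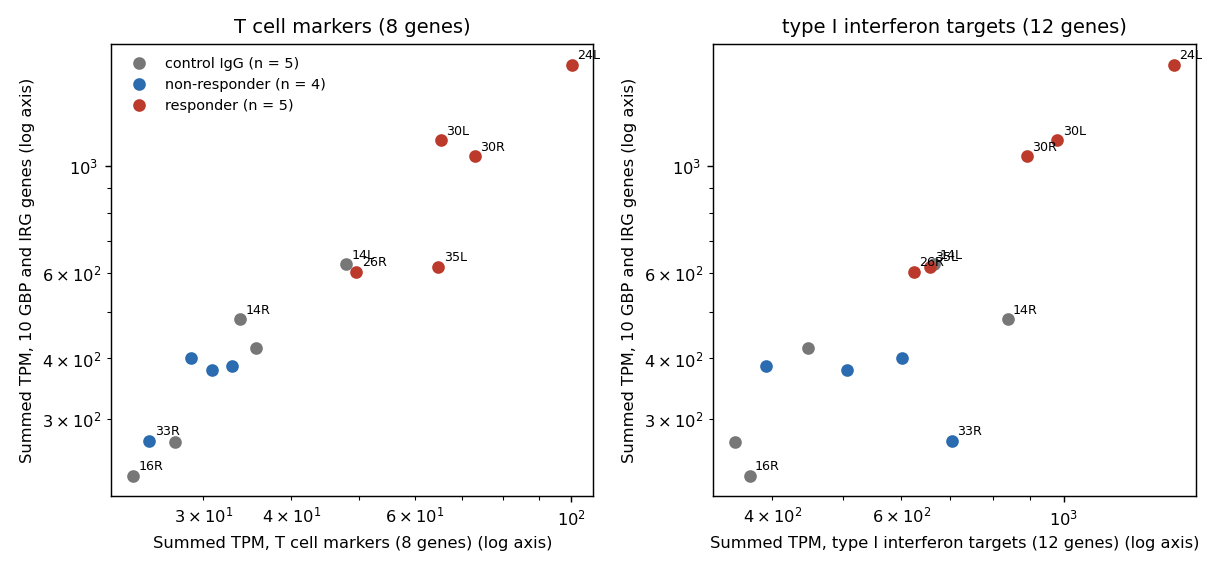
Summed TPM of the 10 genes (y axis) against summed TPM of 8 T cell markers (left) and of 12 type I interferon targets (right) in each tumor, on log axes, with responders and 4 other tumors named. Responder 24L is highest on every axis, and 35L lies below 30L on the y axis at almost the same T cell level.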

How the data were processed

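Bulk mRNA libraries of 14 CT26 tumors were analyzed, with groups taken from the labels. Per the methods, which give the settings under the cell lines, the authors mapped reads to mm10 by STAR and estimated gene abundance by RSEM. The gene annotation release is not given in the sources used here. Each deposited expected count is an RSEM estimate of fragments per gene, before any normalization. The deposited TPM divides it by effective length, itself a deposited column, and scales to a common total. The deposited FPKM column was left unused.

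Of 53801 genes, 53620 were matched to a symbol of GENCODE vM21. Expected counts were rounded and tested with edgeR 4.0.16 (R 4.3.3; TMM, filterByExpr, quasi-likelihood test, Benjamini-Hochberg adjustment over 16287 genes, threshold 0.05), with all 14 tumors in 3 groups and no covariate. The study's methods name DESeq2, which is among the alternatives (DESeq2 1.42.0, limma 3.58.1). CPM used TMM library sizes and log2 CPM a prior count of 2. SE was derived from the fold change and its F statistic, and intervals are 95% confidence intervals. The tests were tested on simulated data.

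The members, the gene lists, and the rule for named genes were chosen with earlier results of these data known. The rule names all members, the genes of the interferon and GTPase lists that pass the test or lie at a list's end, with Ifng and Irf1, and the 10 genes most like the members. Some such genes are only counted, and some are not reported here. Tumors of a mouse are not independent, so p-values measure the spread between these tumors. RefSeq promoters were read with 15 bases around joined motifs (fewer where more than 30 bases fell in exons).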

Additional observations from a re-analysis of the deposited data

How the results depend on the processing

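No member changed direction between responders and either other group under any alternative. Of the members' fold changes, 155 of 210 against non-responders and 183 of 220 against control IgG stayed past the threshold, while 55 and 37 no longer passed. The number of members called against non-responders was 3 with 1 library per mouse, 7 with limma-voom, and 10 under the other alternatives that kept every tumor, and 2 to 10 when 1 tumor was left out. Against control IgG it was 9 without a filter on low counts, 8 with only the compared groups, otherwise 10, and 3 to 10 when 1 tumor was left out. It was 0 throughout between non-responders and control IgG. There the sign reversed in some fits, all with an adjusted p of at least 0.974: Gbp2 was at -0.0059 with DESeq2, -0.0049 with DESeq2's size factors, -0.0109 without a filter, -0.0036 with at least 1 CPM in 4 tumors, -0.0005 after removal of the length trend, and, from TPM, -0.0183 (pseudocount 1) and -0.0175 (pseudocount 0.1). Gbp4 was at 0.0148 and Gbp7 at 0.0368 with limma-voom, Gbp4 at 0.0903, Gbp6 at 0.0123, and Gbp7 at 0.0986 with 1 library per mouse, and Gbp7 at 0.0141 with the length trend removed. With 1 tumor left out, these fold changes ran from -0.162 to 0.194 for Gbp2, -0.137 to 0.199 for Gbp3, -0.231 to 0.142 for Gbp4, -0.290 to 0.0799 for Gbp6, -0.174 to 0.116 for Gbp7, -0.267 to 0.0118 for Irgm1, and -0.263 to 0.0327 for Irgm2. The cause of these changes was not tested. Genes called in all between responders and non-responders were 1612, against 2559 with DESeq2, 2973 with mouse as a random effect (consensus correlation -0.282), 1106 without a filter, 689 with only the compared groups, and 569 to 1978 with 1 tumor left out. With that negative correlation, calls rose from the 1491 genes and 7 members of limma-voom without the random effect. This fit therefore does not guard against counting tumors of a mouse as independent. Against control IgG, 2147 genes were called in all, and 1190 to 1944 with 1 tumor left out. On log2(TPM + 1) the median of all genes moved to 0.17 between responders and non-responders, and the members were between 1.16 and 1.60. The alternatives were run for the members, not for genes of the other lists. No paired analysis was possible because replicate numbers do not tie tumors of different groups.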

Other observations

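Genes of the ATG8 conjugation system, which guides GBPs and IRGs to vacuoles, did not rise with the members. Of 11 tested, none passed as higher in responders than non-responders, and 1 was lower. That gene was Sqstm1, an autophagy receptor listed beside the conjugation genes, with a log2 fold change of -0.48 ± 0.12 (SE; adjusted p = 0.0230) by edgeR's quasi-likelihood test. Against control IgG, Sqstm1 (-0.46, adjusted p = 0.0133) and Atg16l1 (-0.25, adjusted p = 0.0438) were lower and none was higher. Their summed level overlapped between groups, at 913 to 1013 TPM in responders, 942 to 1068 TPM in non-responders, and 918 to 1050 TPM in control IgG tumors.

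Inflammasome genes, which act downstream of GBPs in infected cells, changed in both directions. Their summed level was 243 to 321 TPM in responders, 194 to 212 TPM in non-responders, and 188 to 232 TPM in control IgG tumors. In CPM, 3 of the 9 were above non-responders without overlap, beside 6.8% of all genes. Of 9 tested, Gsdmd, the pore-forming gasdermin (0.52 ± 0.10, SE; adjusted p = 0.0114), and the sensor Nlrp3 (0.61 ± 0.15, SE; adjusted p = 0.0256) were above non-responders in the responder tumors by edgeR's quasi-likelihood test, while the DNA sensor Aim2 was lower (-0.40 ± 0.12, SE; adjusted p = 0.0439). The adaptor Pycard stood at -0.01 (adjusted p = 0.978) and Il1b at -0.03 (adjusted p = 0.966). Against control IgG, Gsdmd (0.56, adjusted p = 0.00245) and Casp1 (0.39, adjusted p = 0.0361) were higher and Aim2 was lower (-0.41, adjusted p = 0.0246).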
